A study of Mus musculus with 2 samples.

Results

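The genes described here are the Hedgehog ligand Shh, its receptor Ptch1, the secreted-ligand trap Hhip, the signal transducer Smo, the co-receptors Gas1, Boc and Cdon, and the transcription factors Gli1, Gli2 and Gli3. They were chosen by symbol, and all 10 were found among the 32285 genes of the deposited tables. Each of the 10 passed the minimum of 50 unique molecular identifiers (UMIs, 1 per captured transcript molecule) over both libraries.

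The cells came from mouse somitic gastruloids, which are aggregates of embryonic stem cells that elongate and form tissues of the trunk, including somite-like segments when they are embedded in Matrigel. Both groups were made from the same E14 triple reporter line, whose endogenous Zeb2 gene carries an HA and FKBP12F36V tag, so the controls hold the tagged Zeb2 protein too. Zeb2 is a zinc finger transcription factor, and dTAG-13 is a small molecule that directs proteins with the FKBP12F36V tag to degradation. In both groups 300 cells were seeded per well, 3 µM CHIR99021 (a GSK3 inhibitor that activates WNT signalling) was given after 48 h, and the aggregates were moved to 10% Matrigel at 96 h. The treated group received 100 nM dTAG-13 at 72 h and again at 96 h. The other library is called untreated in its labels, while the text on the design names DMSO as the counterpart of dTAG-13. The sources used here give neither the hour of harvest nor the number of clones behind the line. About 32 gastruloids were pooled per library, and live cells were sorted by exclusion of the dye 7-AAD. Each group is 1 library, and for want of replicates no p-value is given anywhere. The intervals given are exact 95% intervals that cover counting error only.

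In vertebrate embryos, Shh is secreted by the notochord and the floor plate of the neural tube. In cells that do not receive it, Ptch1 holds Smo inactive and Gli3 is cut to a repressor. Binding of Shh to Ptch1, helped by Gas1, Boc and Cdon, frees Smo, and the Gli factors then activate targets that include Ptch1, Hhip and Gli1 themselves. Ptch1 and Hhip retain ligand and limit its spread, and the transcript levels of Ptch1 and Gli1 are widely used as readouts of the response. In the trunk the pathway patterns the ventral neural tube and the sclerotome of the somites.

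After filtering, 6231 untreated and 6688 dTAG-13 cells were kept, with a median of 20049 and 20226 UMIs. The libraries shared 14 cell barcodes, of which 9 were among the kept cells. The transcript of the tagged gene, Zeb2, stood at 67.8 UMIs per 1000000 (CPM) in the untreated and 94.8 CPM in the dTAG-13 library, and since dTAG-13 acts on the protein this does not check the labels. Cells were divided into 14 gates that exclude each other by the raw UMIs of 8 marker genes, none of them a member, with at least 2 UMIs counted as positive. The Foxa2+ T+ gate held 99 untreated and 166 dTAG-13 cells (1.59% and 2.48% of the kept cells). The gate positive for Foxa2 without T or Sox17, called Foxa2+ alone, held 92 and 328 cells, and the Foxa2+ Sox17+ gate 71 and 100 cells. The Meox1+ gate, positive for the somite gene Meox1 and under 2 UMIs of Foxa2, Sox17, Sox2, Tbx6 and Sfn, held 708 and 459 cells. The Tbx6+ gate, set in the same way by Tbx6, a gene of presomitic mesoderm, held 372 and 100 cells. Cells positive for both Tbx6 and Meox1, without Foxa2, Sox17, Sox2 or Sfn, formed a gate of 60 and 40 cells. The Sox2+ alone gate held 1557 untreated and 931 dTAG-13 cells, and the gate of Sfn, an epithelial gene, 80 and 568 cells. Cells under 2 UMIs of Foxa2, Sox17, Sox2, Tbx6, Meox1 and Sfn, 1782 untreated and 2027 with dTAG-13, make up the remaining gate. T and Pou5f1 were not used for that gate, and 549 (30.8%) and 377 (18.6%) of its cells were positive for T. For Pou5f1, 192 (10.8%) and 544 (26.8%) of its cells were positive. The gates were checked against marker lists. The 8 node and notochord markers summed to 460 CPM in the untreated and 308 CPM in the dTAG-13 cells of the Foxa2+ T+ gate, with none of the 8 at 0. This list was not confined to that gate. It summed to 285.8 and 261.7 CPM in Sox2+ T+ cells, again with none at 0, and to 203.2 and 171.5 CPM in Sox2+ alone cells. The Foxa2+ T+ gate also held other lists, with sums of 765 and 527 CPM for the 6 neuromesodermal, 742 and 515 CPM for the 6 presomitic and 953 and 1192 CPM for the 9 endoderm markers, and it is called by its 2 markers for that reason. In the Foxa2+ Sox17+ gate the 9 endoderm markers summed to 4953 and 3760 CPM. In the remaining gate they summed to 423 and 821 CPM. The part of that gate's makeup in the ratios of the members there was not tested.

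Over all kept cells, Shh, Ptch1 and Gli1 were higher and Gas1 was lower in the dTAG-13 library by at least 1.5-fold, and the other 6 members lay within 1.5-fold. The same thresholds took 8.5% (higher) and 3.28% (lower) of the 16137 genes with at least 50 UMIs, against 3 and 1 of the 10 members. The median log2 ratio of dTAG-13 over untreated was 0.22 for the members and 0.04 for all genes measured. Shh stood at 0.765 CPM untreated and 1.39 CPM with dTAG-13, from 107 and 212 UMIs, and its log2 ratio was 0.86 (interval 0.52 to 1.21). Ptch1 went from 52.5 to 81.6 CPM, a log2 ratio of 0.64 (0.59 to 0.68), and Gli1 from 2.85 to 4.52 CPM, a log2 ratio of 0.66 (0.48 to 0.84). Gas1 went from 38.3 to 17.8 CPM, a log2 ratio of -1.10 (-1.17 to -1.04). With a prior of 1 CPM added to both libraries, the log2 ratio of Shh was 0.44 and that of Gli1 0.52, both short of 1.5-fold.

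These 4 ratios were built in different ways. Each was divided into a part that goes with the changed sizes of the gates and a part that goes with changed levels inside them. The parts need not add up to the whole ratio. For Shh the part from gate sizes was 0.75 and the part within gates 0.06 on the log2 scale. The part within gates is a net value for Shh. It holds ratios such as -0.41 (-0.87 to 0.05) in Foxa2+ T+ cells and 1.14 (0.42 to 1.90) in the remaining gate. Without the 1 untreated cell that carried 20 Shh UMIs, the parts from gate sizes and within gates were 0.72 and 0.37. The order was the other way round for the response genes, with 0.10 and 0.53 for Ptch1 and 0.00 and 0.65 for Gli1. For Gas1 both parts were negative, -0.35 from gate sizes and -0.76 within gates. The lower whole-library level of Boc, 8.04 against 6.41 CPM, went with gate sizes (-0.33), and its net part within gates was 0.00. That net part sums ratios of either sign, such as -0.74 in Sox2+ Pou5f1+ and 0.21 in Sox2+ alone cells.

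Within gates, the members past 1.5-fold were few and mostly the same ones. The Foxa2+ T+ gate had 0 of 7 measured members higher, beside 4.49% of all genes, and 1 lower, Gas1. No member was lower in 5 gates, Foxa2+ Sox17+ (0 of 4, beside 2.71% of all genes), Tbx6+ (0 of 5, beside 4.07%), Sfn+ (0 of 7, beside 3.81%), Sox2+ Sfn+ (0 of 8, beside 4.25%) and the remaining gate (0 of 9, beside 2.51%). The gate of other marker combinations had Gli1 higher and Gas1 lower among 8 measured, where 3.85% of all genes were that much higher and 4.36% lower. The genes behind these counts are taken up below by their role.

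Shh transcripts were concentrated in cells that co-expressed Foxa2, the forkhead factor of node, notochord, floor plate and endoderm, and T, the Brachyury gene of notochord and tail bud. The Foxa2+ T+ gate held 64 of 107 Shh UMIs in the untreated library (59.8%) and 111 of 212 in the dTAG-13 library (52.4%). Its Shh level was 31.1 CPM (24.0 to 39.8) untreated and 23.4 CPM (19.2 to 28.1) with dTAG-13. In each library the interval of this gate lay above that of every other gate with at least 50 cells. The dTAG-13 to untreated log2 ratio within the gate was -0.41 (-0.87 to 0.05), an interval that includes 0. It was -0.90 with the doublet-scored barcodes kept and -0.95 after each cell was thinned to 5000 UMIs. A single untreated cell carried 20 of the 64 Shh UMIs. Without it the untreated level was 21.6 CPM and the log2 ratio 0.11 (-0.40 to 0.65), so 1 cell set the sign and no direction is given for Shh within this gate. Of the node and notochord marker genes in this gate, Noto stood at 28.7 CPM untreated and 9.68 CPM with dTAG-13, and Nog at 96.3 and 42.3 CPM. Foxj1 of the same list was not lower throughout. It stood at 3.59 and 7.22 CPM in cells without a Shh UMI and at 18.2 and 13.8 CPM in cells with one, with overlapping intervals. The 7 pluripotency markers summed to 117 CPM in the untreated and 296 CPM in the dTAG-13 cells. The part of that makeup in the Shh values was not tested.

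The share of cells with a Shh UMI gave no order between the libraries. In the Foxa2+ T+ gate 20 of 99 untreated cells (20.2%) and 44 of 166 dTAG-13 cells (26.5%) had at least 1 Shh UMI. After thinning to 5000 UMIs, the shares were 10.1% and 6.63%, the reverse order. The intervals of the libraries overlapped before and after thinning. In the dTAG-13 library the cell with most Shh carried 12 UMIs. The 5 cells with most Shh held 37.4% of all untreated and 22.2% of all dTAG-13 Shh UMIs. The Tbx6+ gate was the measure of free Shh RNA: 0 of 372 untreated cells and 0 of 100 dTAG-13 cells had a Shh UMI, which allows shares of up to 0.806% and 3.00% (3 counts over the number of cells), at median depths of 21030 and 21550 UMIs against 17597 and 18802 in the Foxa2+ T+ gate. None of 708 untreated and 459 dTAG-13 Meox1+ cells had one either, with limits of 0.424% and 0.654% found the same way.

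Other Foxa2 or Sox17 positive cells held little Shh. In the Foxa2+ alone gate Shh stood at 4.39 CPM (2.01 to 8.33, 9 UMIs) untreated and 1.80 CPM (1.01 to 2.97, 15 UMIs) with dTAG-13. The Foxa2+ Sox17+ gate, whose endoderm list was highest, had 1.18 CPM from 2 UMIs and 1.58 CPM from 5 UMIs. The Sox17+ alone gate had 1 and 6 UMIs. The plot of Shh by gate shows the distance between the Foxa2+ T+ cells and all other gates.

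**Figure D1:**
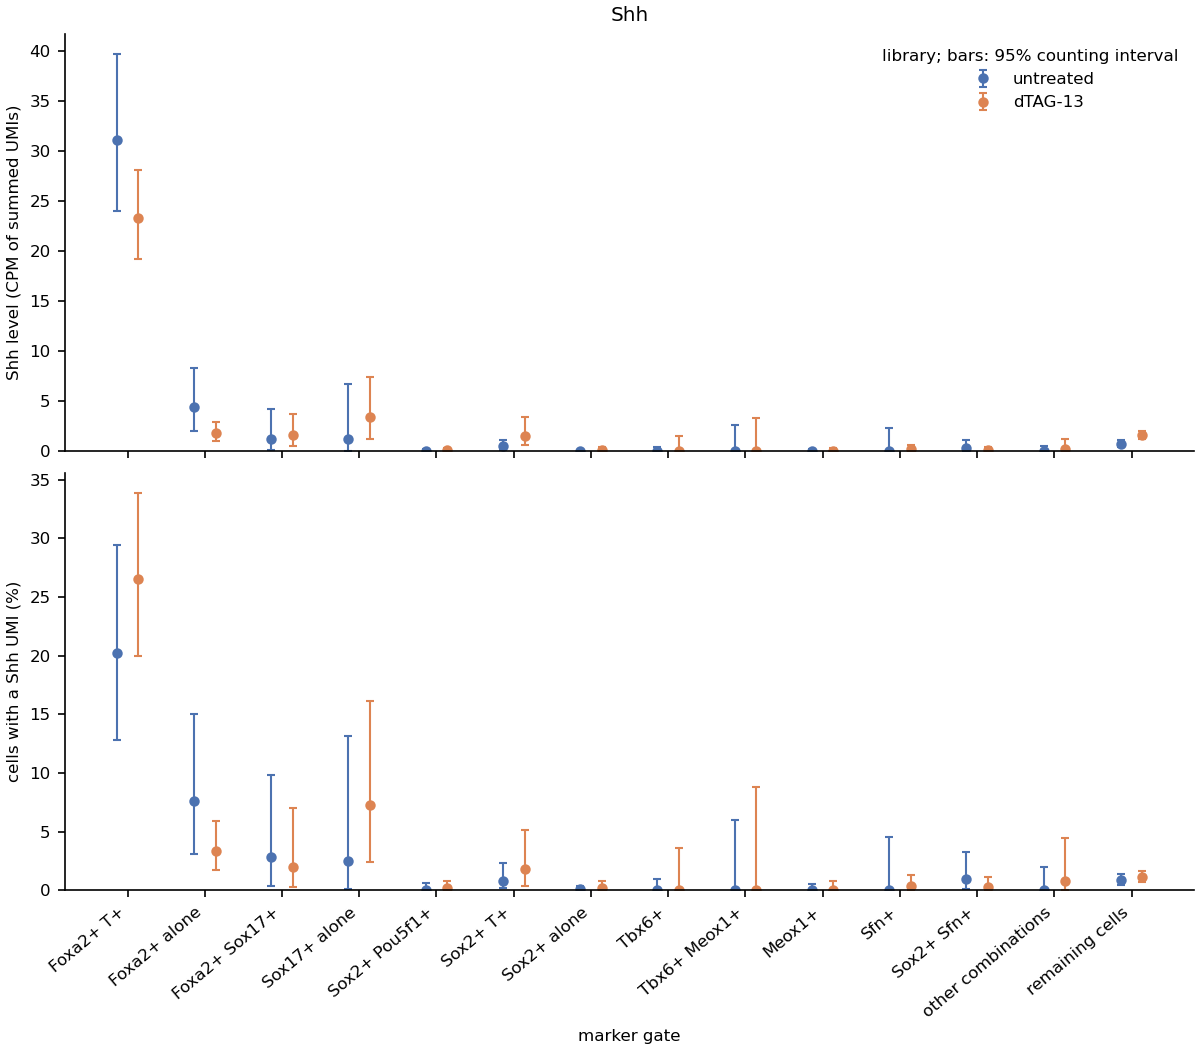
Shh in each marker gate of the untreated (blue) and dTAG-13 (orange) libraries, as the level in CPM of summed UMIs (top) and as the percentage of cells with at least 1 Shh UMI (bottom), with exact 95% counting intervals. The Foxa2+ T+ gate stands at 31.1 and 23.4 CPM, above all others, and the Tbx6+ and Meox1+ gates are at 0 in both libraries.

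The source cells were then divided by the number of Foxa2 and T molecules, leaving out Sox17+ cells. Cells with at least 2 T UMIs held 87 of 104 Shh UMIs in the untreated library (83.7%) and 173 of 201 in the dTAG-13 library (86.1%). Among these T+ cells, Shh was higher with more Foxa2. In the untreated library it was 0.326 CPM at 0 Foxa2 UMIs, 10.6 CPM at 1, 21.2 CPM (13.8 to 31.0) at 2 to 3 and 45.9 CPM (32.5 to 63.0) at 4 or more. The last step came from 1 cell: without the cell of 20 Shh UMIs the highest bin stood at 22.2 CPM (13.2 to 35.1), and a Shh UMI was found in 13 of 64 cells at 2 to 3 and in 7 of 35 cells at 4 or more. The dTAG-13 library gave 2.47, 8.96, 19.3 (14.4 to 25.4) and 28.4 CPM (21.6 to 36.5) in the same order, and the last pair of intervals overlaps. Where T was under 2 UMIs, Shh was also higher with more Foxa2, from 0.0406 CPM at 0 Foxa2 UMIs to 5.40 CPM at 2 to 3 in the untreated library and from 0.0832 CPM to 2.61 CPM at 4 or more in the dTAG-13 library, at levels below those of the T+ cells in each bin. Foxa2 at 4 or more UMIs without T thus stood at 3.19 and 2.61 CPM, below the intervals of the T+ cells with the same Foxa2.

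T+ cells with no Foxa2 UMI held more Shh in the dTAG-13 library, from few cells. They held 10 Shh UMIs among 1229 untreated cells, 0.326 CPM (0.156 to 0.599), and 41 among 694 dTAG-13 cells, 2.47 CPM (1.77 to 3.35). These intervals did not overlap, but they count UMIs, several of which came from the same cell. A Shh UMI was found in 6 untreated cells, 0.488% (0.179 to 1.06), and in 14 dTAG-13 cells, 2.02% (1.11 to 3.36). The intervals of these shares only just missed each other. Of the T+ cells with no Foxa2 UMI, 519 and 324 were in the remaining gate, with 5 and 33 of the Shh UMIs. That gate as a whole had 23 Shh UMIs untreated and 59 with dTAG-13, 0.717 and 1.58 CPM, a log2 ratio of 1.14 (0.42 to 1.90). Its T+ cells held 17 of the 23 and 51 of the 59 UMIs. One cell of that gate in the dTAG-13 library carried 12 of the 59 UMIs.

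**Figure D2:**
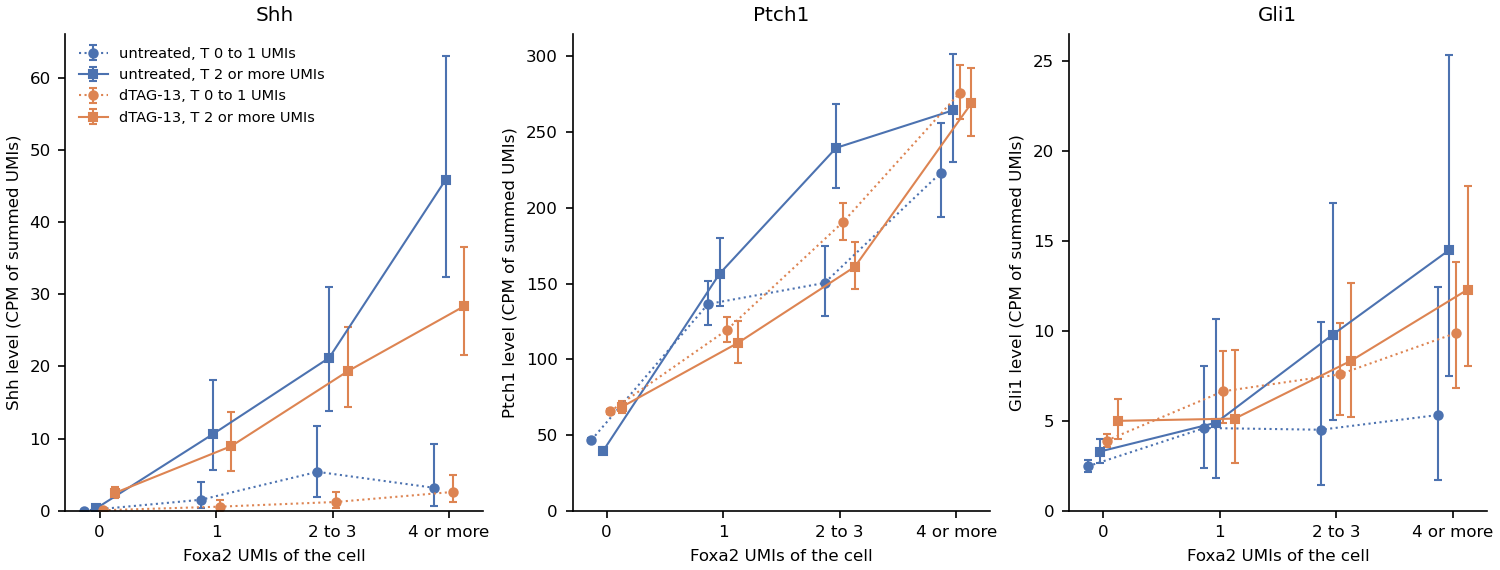
Levels of Shh, Ptch1 and Gli1 (CPM of summed UMIs, exact 95% counting intervals) by the number of Foxa2 UMIs of the cell, for cells with 0 to 1 T UMIs (circles, dotted) and 2 or more (squares, solid) of both libraries, Sox17+ cells left out. Shh reaches 45.9 and 28.4 CPM in the squares and no more than 5.40 CPM in the circles, while Ptch1 is above 220 CPM at 4 or more Foxa2 UMIs with or without T.

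The Foxa2+ T+ cells with a Shh UMI were compared with the other cells of their gate in each library. They had more of the notochord genes. Noto, a homeobox factor of the node and notochord, stood at 54.6 CPM in Shh-positive and 22.7 CPM in the other untreated cells, and at 19.8 and 6.95 CPM in the dTAG-13 library. Nog, which encodes the BMP antagonist noggin, stood at 239 and 63.4 CPM untreated and at 110 and 24.1 CPM with dTAG-13. T itself was at 663 against 299 CPM and at 465 against 211 CPM, and Sox9 at 185 against 66.4 CPM and 148 against 54.3 CPM. Median depth was close, 18616 and 17511 UMIs untreated and 18890 and 18207 UMIs with dTAG-13. Ptch1 stood at 335 CPM (280 to 398) in the Shh-positive and 230 CPM (207 to 254) in the other untreated cells, and at 241 and 201 CPM in the dTAG-13 library, where the intervals overlap. Each set is few cells of 1 library, so these are descriptions.

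Over 26 profiles, each the summed cells of 1 gate in 1 library with at least 50 cells, the 5 genes whose levels followed Shh most closely were Nog, Upk3a, Gzmm, Chrd and Noto, with Pearson correlations of log2 CPM of 0.95, 0.95, 0.94, 0.92 and 0.91 among 7255 genes. Chrd encodes chordin, a second BMP antagonist of the node and notochord, Upk3a encodes a uroplakin and Gzmm a granzyme. In the Foxa2+ T+ gate Upk3a stood at 88.1 and 49.7 CPM and Gzmm at 26.3 CPM in both libraries. The profiles share 2 libraries, and Shh is at most 4.39 CPM in every profile other than the 2 Foxa2+ T+ ones.

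Of the response genes, Ptch1 was highest in the Foxa2+ gates that lack Sox17. It stood at 250 CPM (228 to 272) in Foxa2+ T+ and 184 CPM (166 to 203) in Foxa2+ alone cells of the untreated library. Every other gate of that library lay between 22.4 and 54.1 CPM. In the dTAG-13 library the Foxa2+ alone gate stood at 226 CPM (216 to 236) and the Foxa2+ T+ gate at 209 CPM (196 to 223), neighbours with overlapping intervals, and the others lay between 38.2 and 87.5 CPM. The Foxa2+ Sox17+ cells were the lowest gate in both libraries. Ptch1 was high with and without T where Foxa2 was high. At 4 or more Foxa2 UMIs it stood at 223 CPM (194 to 256) with T under 2 UMIs and 264 CPM (230 to 302) in T+ cells of the untreated library, and at 276 and 269 CPM with dTAG-13, intervals that overlap in each library. At 2 to 3 Foxa2 UMIs the T+ cells were the higher ones in the untreated library, with 240 CPM (213 to 269) against 150 CPM (128 to 175), and the lower ones with dTAG-13, with 161 CPM (146 to 177) against 191 CPM (179 to 203).

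Outside the Foxa2+ T+ gate, Ptch1 was higher with dTAG-13 everywhere it could be compared. The interval of the log2 ratio lay above 0 in 11 of 12 gates, and 7 of the 12 passed 1.5-fold. In Sox2+ T+ cells, the combination of neuromesodermal progenitors, Ptch1 stood at 45.4 CPM untreated and 81.6 CPM with dTAG-13, a log2 ratio of 0.85 (0.63 to 1.05). In this gate 5.51% of 10009 genes were at least 1.5-fold higher. Sox2+ alone cells went from 51.3 to 85.9 CPM (0.74, 0.65 to 0.84), beside 5.44% of 12483 genes. Meox1+ cells went from 54.1 to 87.5 CPM (0.69, 0.56 to 0.83), beside 2.89% of 10849 genes, and Tbx6+ cells from 36.2 to 57.7 CPM (0.67, 0.37 to 0.97), beside 3.6% of 9256 genes. In Sfn+ cells the levels were 34.1 and 54.1 CPM (0.66, 0.27 to 1.09), beside 7.95% of 10055 genes, and in the remaining gate 49.8 and 77.5 CPM (0.64, 0.55 to 0.73), beside 6.46% of 13319 genes. The Foxa2+ Sox17+ gate, the lowest in level, went from 22.4 to 38.2 CPM (0.77, 0.23 to 1.33), where 3.39% of 7700 genes were that much higher. Ptch1 differed by less than 1.5-fold in Foxa2+ alone (0.30), Sox2+ Pou5f1+ (0.41), Sox2+ Sfn+ (0.34) and mixed gates (0.54). The Sox2+ T+, Sox2+ alone, Tbx6+, Meox1+ and Sfn+ gates thus all held more Ptch1 with dTAG-13.

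Thinned to 5000 UMIs a cell, Ptch1 was detected in 20.1% of untreated and 30.6% of dTAG-13 Meox1+ cells and in 20.9% and 29.1% of Sox2+ alone cells. In the Foxa2+ T+ gate the shares were 65.7% and 61.5%. The summed log2 ratio of this gate was -0.25 (-0.41 to -0.10), the only one below 0. It changed sign with the weight given to each cell: averaged over cells it stood at 264 CPM untreated against 274 CPM with dTAG-13, and the thinned log2 ratio was 0.16. No direction is therefore given for Ptch1 in these cells.

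**Figure D3:**
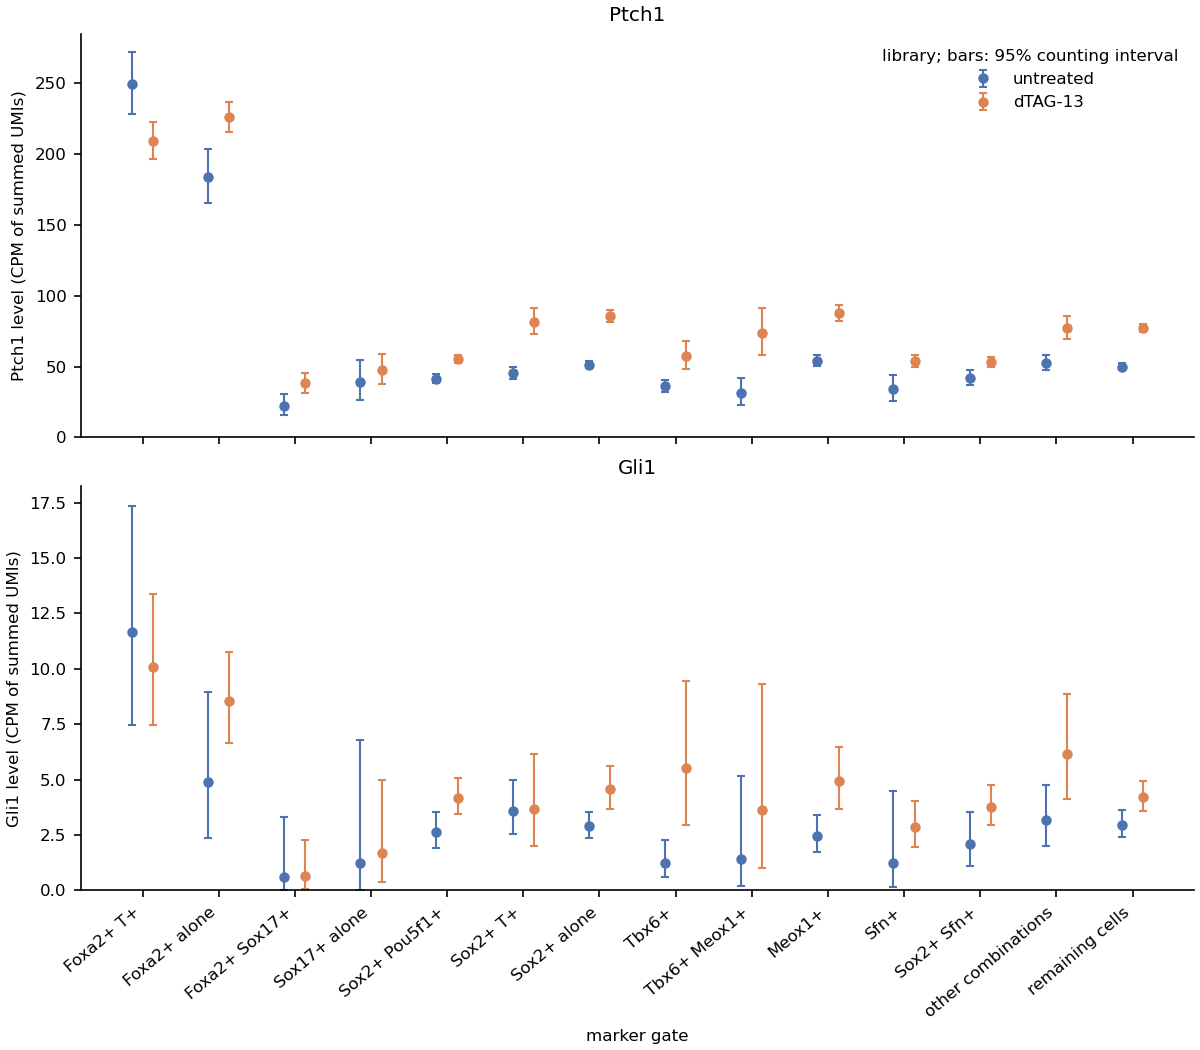
Levels of Ptch1 (top) and Gli1 (bottom) as CPM of summed UMIs by marker gate, for the untreated (blue) and dTAG-13 (orange) libraries, with exact 95% counting intervals. Ptch1 stands near or above 184 CPM in the Foxa2+ T+ and Foxa2+ alone gates and under 88 CPM elsewhere, and the orange points lie above the blue ones in the compared gates other than Foxa2+ T+.

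Gli1, the transcription factor whose own gene is a target of the pathway, shared its highest pair of gates and its lowest gate with Ptch1, from fewer molecules. The gates between them stood in another order, such as Meox1+ at rank 3 for Ptch1 and rank 8 for Gli1 in the untreated library, with intervals that mostly overlapped for Gli1. Gli1 was highest in the Foxa2+ T+ gate, at 11.7 CPM (7.48 to 17.4) untreated and 10.1 CPM (7.45 to 13.4) with dTAG-13, and lowest in the Foxa2+ Sox17+ gate, at 0.590 and 0.631 CPM from 1 and 2 UMIs. In 6 of the 9 gates with at least 50 UMIs it was at least 1.5-fold higher with dTAG-13, and the interval was above 0 in 5 of the 9. Meox1+ cells had 2.46 and 4.92 CPM, a log2 ratio of 1.00 (0.36 to 1.65), and Sox2+ alone cells 2.90 and 4.56 CPM (0.65, 0.22 to 1.08). In Sox2+ Pou5f1+ cells, where Pou5f1 marks pluripotent cells and the 1.5-fold threshold took 3.4% of 12412 genes on the higher side, the levels were 2.63 and 4.18 CPM (0.67, 0.14 to 1.22). Foxa2+ alone cells had 4.88 and 8.53 CPM (0.81, -0.16 to 1.93) beside 4.97% of 9701 genes. This ratio was -0.99 after thinning, from 4 untreated and 9 dTAG-13 cells with a UMI. Tbx6+ cells had 10 and 13 UMIs, 1.23 CPM (0.590 to 2.26) and 5.52 CPM (2.94 to 9.44), too few for a ratio here. The gene with the pattern most like Gli1 over the 26 profiles was Ptch1, with a correlation of 0.91, followed by Stx16, Wasf1, Lancl1 and H1fx between 0.82 and 0.78.

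At the level of single cells, thinned to 5000 UMIs, Ptch1 and Gli1 were found together in 27 of 6144 untreated cells (0.440%) and 60 of 6607 dTAG-13 cells (0.908%). The product of their separate shares was 0.258% and 0.60%. Inside gates the shares lay on both sides of the product of the gate. In Foxa2+ T+ cells they were 3.03% against 2.65% untreated and 3.01% against 2.22% with dTAG-13. Sox2+ alone cells had 0.193% against 0.255% and 0.864% against 0.502%, and Meox1+ cells 0.713% against 0.258% and 0.66% against 0.67%. The product lay within the interval of each of these shares. The part of gate makeup in the pooled shares was not tested. Ptch1 and Shh were found together in 12 and 14 cells, 0.195% and 0.212%, where the products were 0.070% and 0.135%. In Foxa2+ T+ cells these shares were 6.06% against a product of 6.63% untreated and 3.01% against 4.07% with dTAG-13. Each product lay within the interval of its share in that gate. Ptch1 at 3 or more UMIs was seen in 1.77% of untreated cells (1.46 to 2.14) and 3.48% of dTAG-13 cells (3.05 to 3.95).

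Hhip, the membrane-bound protein that traps Hedgehog ligands, followed the other response genes only in part. It had 93 and 124 UMIs in all, 0.665 and 0.815 CPM, a log2 ratio of 0.29 (-0.11 to 0.70). Among gates with at least 50 cells, its level was highest in Foxa2+ Sox17+ cells, at 7.07 CPM (3.65 to 12.4) untreated and 6.31 CPM (3.85 to 9.74) with dTAG-13, the gate where Ptch1 and Gli1 were lowest. The smaller Sox17+ alone gate had 7.29 CPM from 6 UMIs in 40 untreated cells and 3.97 CPM from 7 UMIs in 69 dTAG-13 cells. In the Foxa2+ T+ gate only 2 and 6 Hhip UMIs were counted, 0.973 and 1.26 CPM. The Foxa2+ alone gate, where Ptch1 was high, stood at 2.44 CPM from 5 UMIs untreated and 2.28 CPM from 19 UMIs with dTAG-13. In cells under 2 UMIs of Sox17 and T, Hhip was higher at 4 or more Foxa2 UMIs than at 0. It went from 0.578 CPM (0.438 to 0.749) to 3.19 CPM (0.658 to 9.32) untreated, intervals that overlap. With dTAG-13 it went from 0.518 CPM (0.391 to 0.672) to 2.9 CPM (1.39 to 5.34), intervals that do not overlap. No gate reached 50 UMIs, so no ratio within a gate is given.

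Promoter windows, from 250 bases before to 50 after the RefSeq start site on GRCm38.p6, were available for 7 of the 10 members. They are shown for the response genes Ptch1 and Hhip, whose highest gates differed, and for Gas1, the member with the largest lower ratio. Each line gives the 250 bases before the start, 5′ to 3′ on the minus strand, and capitals mark the letters CACCT. The coordinates are chr13:63565736-63565985 for Ptch1, inside the gene as GENCODE M21 models its longest form, chr8:80058009-80058258 for Hhip and chr13:60177536-60177785 for Gas1.
Ptch1: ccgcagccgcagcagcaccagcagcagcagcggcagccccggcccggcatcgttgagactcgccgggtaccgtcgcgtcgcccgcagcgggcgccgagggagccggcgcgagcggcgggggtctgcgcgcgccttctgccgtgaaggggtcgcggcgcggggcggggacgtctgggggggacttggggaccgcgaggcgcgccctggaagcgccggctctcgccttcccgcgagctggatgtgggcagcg
Hhip: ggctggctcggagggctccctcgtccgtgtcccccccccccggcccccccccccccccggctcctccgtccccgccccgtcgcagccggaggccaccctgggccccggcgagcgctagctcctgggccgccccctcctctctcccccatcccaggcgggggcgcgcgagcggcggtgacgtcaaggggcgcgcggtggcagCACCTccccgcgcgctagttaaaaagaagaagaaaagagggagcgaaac
Gas1: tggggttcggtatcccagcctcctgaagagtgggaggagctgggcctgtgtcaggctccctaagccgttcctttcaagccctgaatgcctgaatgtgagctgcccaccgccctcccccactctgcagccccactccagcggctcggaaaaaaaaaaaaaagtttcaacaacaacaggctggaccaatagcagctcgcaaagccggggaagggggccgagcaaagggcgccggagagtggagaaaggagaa
The whole windows of 300 bases were searched on both strands for GACCACCCA, the consensus of Gli factors, for CACCTG, the box of Zeb factors, and for CACCT, its core, which any CACCTG also holds. GACCACCCA was in none of the 7 windows and in 0.253% of 32851 promoter windows. CACCTG was in none of the 7 and in 20.2% of all windows. The core CACCT, a search added after the first gave no match, was found in the windows of Hhip, Cdon and Gli2 and in 51.9% of all windows. A missing match says only that these letters are not in this window.

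Of the co-receptors, Gas1, a GPI-anchored protein that binds Shh, was the member with the broadest lower level. Meox1+ cells had the highest level, 88.9 CPM (84.1 to 93.7) untreated and 55.6 CPM (51.1 to 60.4) with dTAG-13, a log2 ratio of -0.68 (-0.82 to -0.53) in a gate where 1.87% of genes were at least 1.5-fold lower. Gas1 was at least 1.5-fold lower with dTAG-13 in 7 of 12 gates, and the interval lay below 0 in 8. Sox2+ alone cells had 48.7 and 23.0 CPM (-1.08, -1.23 to -0.93), beside 2.42% of genes, and Sox2+ T+ cells 23.4 and 11.2 CPM (-1.06, -1.56 to -0.59), beside 2.61%. In Foxa2+ alone cells Gas1 stood at 41.9 and 15.1 CPM (-1.47, -1.88 to -1.06), beside 5.04%, and in Foxa2+ T+ cells at 23.8 and 10.5 CPM (-1.18, -1.78 to -0.58), beside 4.09%. Sox2+ Pou5f1+ cells had 13.1 and 7.13 CPM (-0.88, -1.18 to -0.59), beside 1.99%. The remaining gate had 29.7 and 20.5 CPM (-0.53, -0.67 to -0.39), short of 1.5-fold. Other markers moved inside these gates as well. In Sox2+ alone cells the 9 endoderm markers summed to 220 and 697 CPM, the 7 surface ectoderm markers to 27.7 and 112 CPM and the 7 spinal cord markers to 248 and 146 CPM. In Foxa2+ alone cells Sfn, the marker of the gate with the lowest Gas1, went from 3.90 to 35.9 CPM and Pou5f1 from 41.5 to 123 CPM. The part of this makeup in the Gas1 and Ptch1 values of these gates was not tested.

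The Sfn+ gate was the lowest for Gas1 in both libraries, at 4.34 CPM (1.75 to 8.94) and 6.34 CPM (4.97 to 7.98), and with the Sox2+ Sfn+ gate (9.10 and 8.15 CPM) it had no interval apart from 0. Foxa2+ Sox17+ cells stood at 17.1 and 16.7 CPM and Tbx6+ cells at 26.1 and 19.9 CPM, intervals that again include 0. Because the Sfn+ gate was larger and the Meox1+ and Sox2+ alone gates were smaller with dTAG-13, gate sizes added to the whole-library difference, as given above. The genes most like Gas1 over the 26 profiles were Rbmx, Hmga2, Peg12, Fzd2 and Scoc, with correlations between 0.90 and 0.87. Hmga2 is a chromatin protein of embryonic cells and Fzd2 a WNT receptor.

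Boc and Cdon, immunoglobulin-family co-receptors, shared with Gas1 a high level in Meox1+ cells but not the difference between libraries. Boc stood at 19.1 CPM (17.0 to 21.5) untreated and 15.9 CPM (13.6 to 18.6) with dTAG-13 in Meox1+ cells, a log2 ratio of -0.26 (-0.55 to 0.02). It was at 9.91 and 11.5 CPM in Sox2+ alone cells and at 1.95 and 3.79 CPM in Foxa2+ T+ cells, from 4 and 18 UMIs. The interval lay apart from 0 in 1 of 9 gates, Sox2+ Pou5f1+, at 3.13 and 1.87 CPM (-0.74, -1.35 to -0.14). Its Tbx6+ ratio of 0.91 had an interval reaching 0. After thinning it was -0.56, from 11 untreated and 2 dTAG-13 cells with a UMI.

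Cdon was at 10.1 CPM (8.52 to 11.8) and 10.9 CPM (8.99 to 13.2) in Meox1+ cells and, unlike Boc, at 8.76 CPM (5.19 to 13.8) and 11.4 CPM (8.54 to 14.8) in Foxa2+ T+ cells, intervals that overlap those of the Meox1+ cells. Among gates with at least 50 cells it was lowest in Tbx6+ cells, at 2.58 and 2.97 CPM. In the remaining gate Cdon went from 4.27 to 6.61 CPM, a log2 ratio of 0.63 (0.32 to 0.94), and in Sox2+ Pou5f1+ cells from 3.69 to 5.30 CPM (0.52, 0.07 to 0.99). The intervals of the other 8 gates included 0. The Foxa2+ T+ cells, where most Shh was found, thus carried Cdon at a level not told apart from that of the Meox1+ gate. Among 13 gates they ranked 8 for Gas1 and 12 for Boc in the untreated library. With dTAG-13 they ranked 10 for both.

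**Figure D4:**
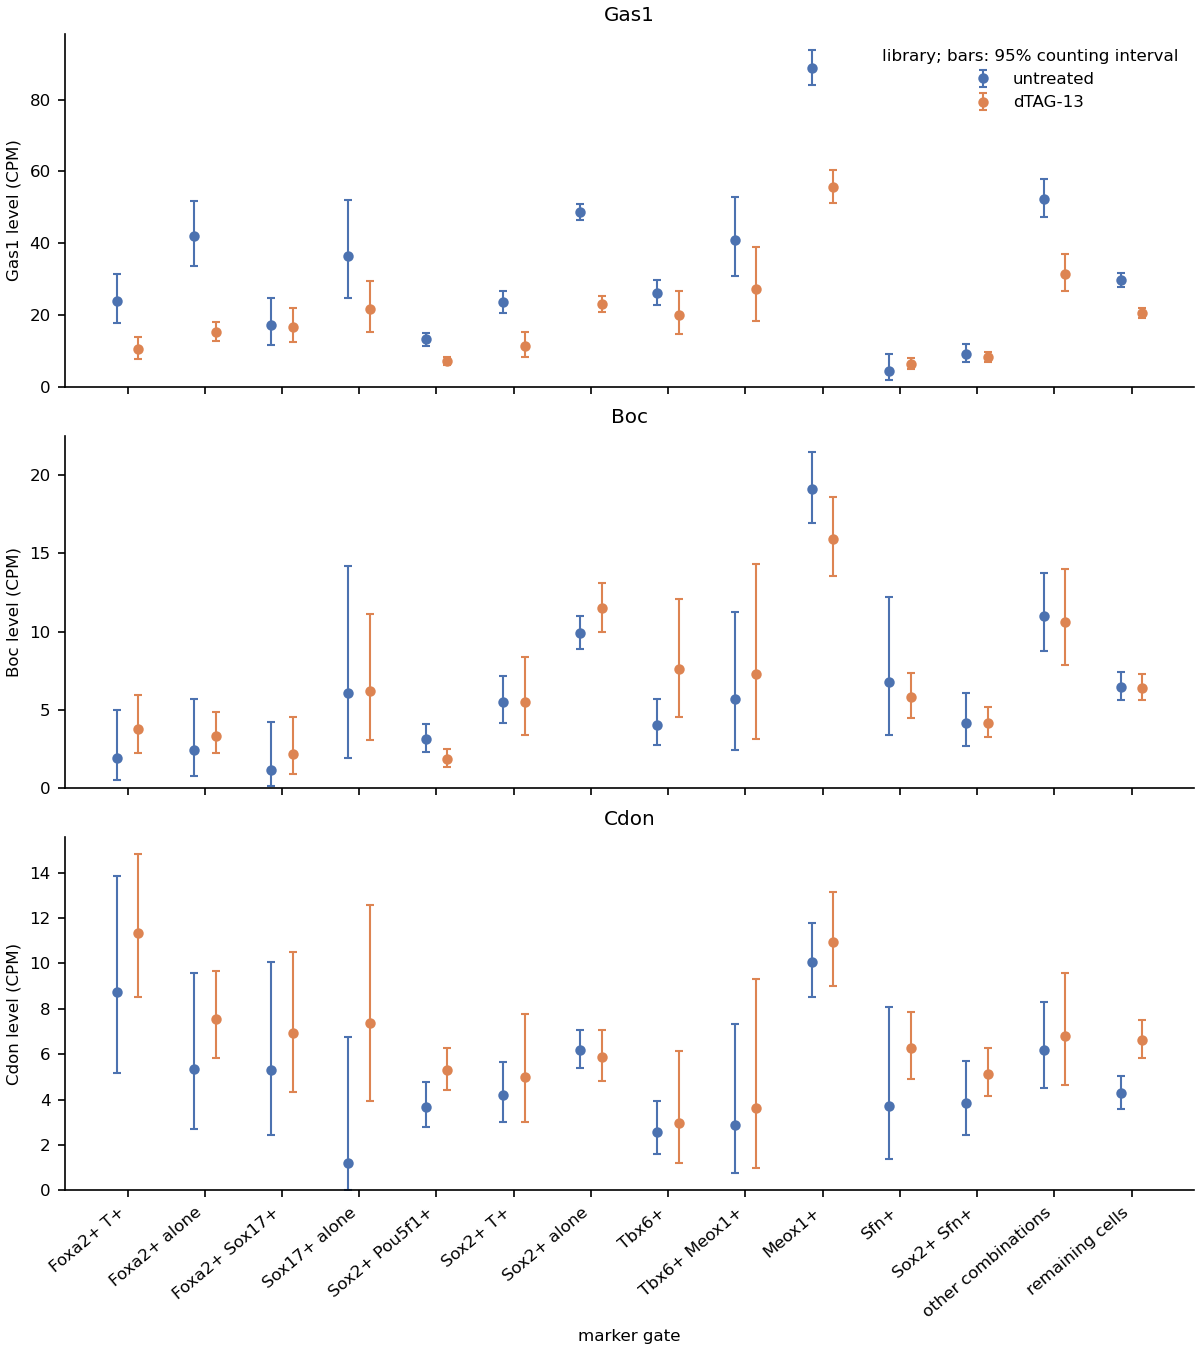
Levels of the co-receptors Gas1, Boc and Cdon as CPM of summed UMIs by marker gate in the untreated (blue) and dTAG-13 (orange) libraries, with exact 95% counting intervals. All 3 are high in the Meox1+ gate (88.9 and 55.6 CPM for Gas1), and the orange points of Gas1 lie under the blue ones in the Foxa2+ T+, Foxa2+ alone, Sox2+ alone and Meox1+ gates.

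Smo, the transducer that all Hedgehog signals pass through, was within 1.5-fold between libraries in 12 of 12 gates, and over all cells it stood at 50.2 and 49.0 CPM, a log2 ratio of -0.03 (-0.08 to 0.01). With gate markers counted from 1 UMI, the Sfn+ ratio of Smo was 0.73. Levels were lowest in Sox2+ Pou5f1+ cells, at 29.4 CPM (26.8 to 32.2) and 29.8 CPM (27.7 to 32.0), and in Sox2+ Sfn+ cells, at 27.9 and 38.4 CPM. The other 10 compared gates of the untreated library lay between 48.3 and 62.3 CPM. The Sox2+ Sfn+ gate also had the widest difference between libraries, a log2 ratio of 0.46 (0.22 to 0.71). The 7 pluripotency markers were highest in these gates too, at 3143 and 2370 CPM in Sox2+ Pou5f1+ and 2797 and 1369 CPM in Sox2+ Sfn+ cells, and their part in the Smo levels was not tested.

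Gli3, the factor that serves mainly as the repressor, was also within 1.5-fold in 12 of 12 gates. It was at 32.8 CPM (30.0 to 35.9) and 39.1 CPM (35.3 to 43.1) in Meox1+ cells and 30.0 and 31.7 CPM in Sox2+ alone cells, and lowest in Foxa2+ Sox17+ cells, at 10.6 and 14.8 CPM. Foxa2+ T+ cells had 24.3 and 21.2 CPM. Gli2, the main activator, had another distribution. It stood at 9.76 and 9.60 CPM in Sox2+ alone, 8.82 and 9.32 CPM in Sox2+ Pou5f1+ and 9.30 and 8.43 CPM in Sfn+ cells, and at 4.80 and 3.74 CPM in Meox1+ and 2.83 and 4.25 CPM in Tbx6+ cells. The intervals of the Sox2+ alone and Meox1+ gates did not overlap in either library for Gli2. Foxa2+ alone cells had 3.90 and 8.65 CPM of Gli2 from 8 and 72 UMIs, a log2 ratio of 1.15 (0.09 to 2.41), and Sox2+ Sfn+ cells 5.42 and 8.31 CPM (0.62, 0.07 to 1.20), beside 7.14% of 11423 genes.

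**Figure D5:**
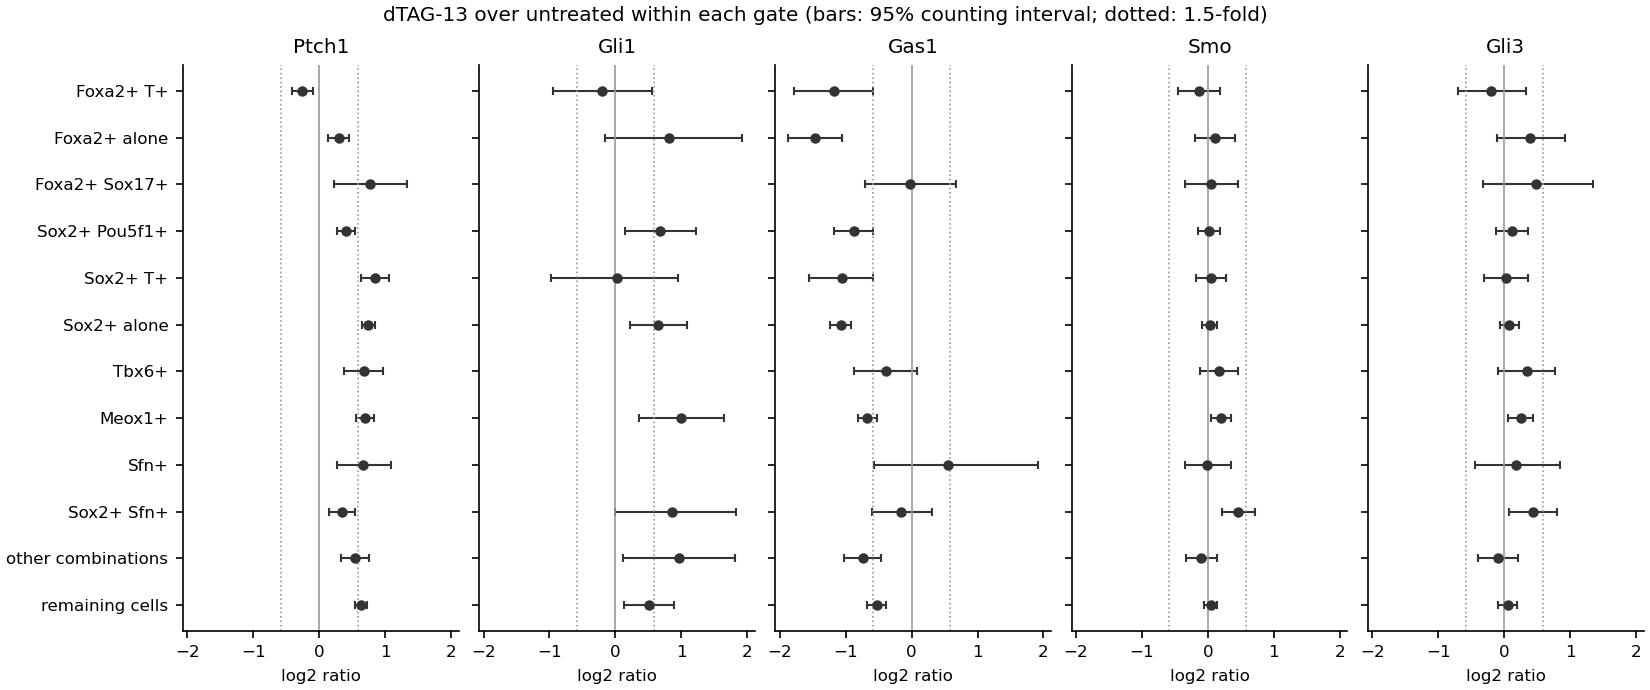
Log2 ratio of dTAG-13 over untreated for Ptch1, Gli1, Gas1, Smo and Gli3 within each gate that had at least 50 cells in both libraries and at least 50 UMIs of the gene, with exact 95% counting intervals. Dotted lines mark 1.5-fold; Ptch1 lies right of 0 in 11 of 12 gates, Gas1 left of 0 with its interval in 8, and Smo and Gli3 inside the dotted lines in 12 of 12.

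The wider pathway was read from lists of genes. Among 10 measured genes of ligands and ligand release, 0 were at least 1.5-fold higher and 1 was lower, with a median log2 ratio of -0.03, beside the 8.5% and 3.28% of all genes given above for the whole library, which apply to each of these lists. That gene was Scube2, which encodes a secreted protein that helps to release lipid-modified Hedgehog from its source, at 3.63 CPM untreated and 0.579 CPM with dTAG-13, a log2 ratio of -2.65 (-2.99 to -2.32). Sox2+ alone cells held 335 of 507 Scube2 UMIs untreated and 41 of 88 with dTAG-13, 9.54 and 2.15 CPM. In Foxa2+ T+ cells it was 6 and 1 UMIs. Ihh, the Hedgehog ligand of endoderm and cartilage, had 25 and 37 UMIs in all. Of these, 12 and 10 came from Foxa2+ Sox17+ cells (7.07 and 3.15 CPM). Among gates with at least 50 cells, that gate had the highest Hhip level. Dhh and Disp2 were under the minimum.

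The 29 genes of reception, regulation and inhibition held no member past 1.5-fold, with a median log2 ratio of 0.05. Among the named ones, Ulk3 had a log2 ratio of 0.54 (0.15 to 0.95). The 25 measured cilium genes, which build the organelle where Smo acts, gave 0 past 1.5-fold and a median of 0.01, with ratios between -0.19 for Ift27 and 0.19 for Tctn1.

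Among 8 measured ventral neural and floor plate targets, 3 were at least 1.5-fold higher and 0 lower, beside 8.5% and 3.28% of all genes, with a median log2 ratio of 0.45. Lmx1b, a LIM homeobox factor that also acts outside the floor plate, stood at 2.56 and 9.95 CPM (1.96, 1.79 to 2.13), and its highest levels were in Sfn+ cells, at 27.9 and 28.2 CPM. Foxj1, the regulator of motile cilia, stood at 0.773 and 2.45 CPM (1.67, 1.35 to 1.99). Nkx6-2 stood at 2.22 and 4.40 CPM (0.99, 0.79 to 1.19) and in Foxa2+ alone cells at 3.41 and 10.6 CPM. The definitive ventral genes Nkx2-2, Olig2 and Ferd3l were under 50 UMIs.

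Of 15 measured sclerotome and other mesodermal targets, 0 were higher and 1 was lower (3.28% of all genes were), Foxd1, at 6.17 and 3.58 CPM (-0.78, -0.94 to -0.63), and the median log2 ratio was -0.09. Pax9, a sclerotome factor, had 93 and 150 UMIs (0.57, 0.19 to 0.96), while Pax1 and Nkx3-2 were under the minimum. Of 11 dorsal genes known to be held down by the pathway, 1 was higher, Wnt1 (1.29, 0.62 to 2.0), and 4 were lower, Dbx1 (-1.80), Zic1 (-1.74), Irx3 (-0.63, named only to complete the count) and Pax3, a factor of dorsal neural tube and dermomyotome, at 25.9 and 15.4 CPM (-0.75, -0.82 to -0.67). The median of this list, 0.35, had the opposite sign from most of its members past 1.5-fold. These genes lie in gates whose sizes differed between the libraries, and the part of that in their ratios was not tested.

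Some members overlap another gene of the tables in GENCODE M21 (GRCm38), and the sources used here give no strand setting for the counting. Shh (chr5:28456815-28467256, minus strand) overlaps 9530036O11Rik, which had 76 UMIs, Gas1 (chr13:60174405-60177365, minus strand) overlaps Gm48488, with 52, Gli1 (chr10:127329882-127341974, minus strand) overlaps Arhgap9 and Gm47200, with 523 in all, and Gli3 (chr13:15463235-15730026, plus strand) overlaps Gm6556, with 176. Ptch1 (chr13:63508328-63573598, minus strand), Hhip, Smo, Boc, Cdon and Gli2 overlap no other gene of the tables.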

How the data were processed

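Single-cell 3′ libraries (10x Chromium v3.1) of 1 untreated and 1 dTAG-13 sample were deposited as UMI counts per gene and cell. The authors made these counts with Cell Ranger 6.1.2 on mm10, per the submitters' processing notes. Here, cells with at least 1000 genes and at most 10% mitochondrial UMIs were kept. Doublets were scored with Scrublet in scanpy 1.11.5. Its automatic threshold marked 1 and 0 cells, so the highest-scoring 0.8% per 1000 barcodes were removed (424 and 496). Kept cells held 139789265 and 152068002 UMIs. Counts were summed per gate and library and scaled to CPM. Log2 ratios carry no prior, and genes are compared where both libraries have at least 50 cells and the gene at least 50 UMIs. Poisson, Clopper-Pearson and conditional binomial intervals were computed with scipy 1.17.1. With 1 library per group no test was run. Ratio and interval code was tested on simulated data. edgeR 4.0.16 (TMM) and DESeq2 1.42.0 gave scaling factors only, as alternatives, beside other filters, gate thresholds and thinning. Named genes were all 10 members, up to 4 genes per list with the largest absolute ratio, and the 5 genes most like Shh, Gli1 and Gas1 (log2 of CPM plus 5, at least 20 CPM in 1 profile, gate markers and predicted genes passed over). Counts by gate, single markers and the Ihh and Scube2 values by gate were chosen after values were seen. The members and lists were chosen with earlier results of these data known.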

Additional observations from a re-analysis of the deposited data

Results flagged for a closer look

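Ptch1 in the Foxa2+ T+ gate stood apart in its summed counts: the log2 ratio of dTAG-13 over untreated was -0.25, with an interval below 0, while the interval was above 0 in the other 11 compared gates. The difference between gates was not tested, since each gate has 1 library per group. The value was 0.16 when each cell was thinned to 5000 UMIs, which gives every cell the same weight, and -0.41 with the doublet-scored barcodes kept. No direction is given for it, since its sign changed with the way the cells were summarised.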

How the results depend on the processing

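No paired analysis was possible because each group has 1 library, and leaving out a replicate was likewise not possible. TMM and DESeq2 factors shifted all log2 ratios by 0.04 and 0.05. The 4 members past 1.5-fold over the whole library stayed past it and kept their direction under every alternative except the prior of 1 CPM, where Shh gave 0.44 and Gli1 0.52. The size also moved for Ptch1 with DESeq2 size factors (0.59) and thinning to 5000 UMIs (0.70), and for Gas1 with thinning (-1.02). The genes past 1.5-fold numbered 1372 (higher) and 529 (lower) as reported, 2464 and 1102 with a minimum of 10 UMIs, and 3417 and 1768 with 1 UMI in each library. The share of Foxa2+ T+ cells with a Shh UMI was 10.1% untreated and 6.63% with dTAG-13 after thinning, and 15.1% with dTAG-13 when gate markers counted from 1 UMI. In Foxa2+ alone cells it was 1.09% and 1.22% after thinning, and 2.16% untreated with markers from 1 UMI. In Foxa2+ Sox17+ cells it was 0 in both libraries with markers from 3 UMIs, and 0 untreated after thinning. Of the ratios within gates under the alternatives, 55 of 557 had the other sign, and the reported interval included 0 for 53 of them. The other 2 were Ptch1 in Foxa2+ T+ (0.16) and Smo in Meox1+ (-0.05), both after thinning. Of reported ratios past 1.5-fold, 3 took the other sign, all after thinning: Gli1 in Foxa2+ alone (-0.99), Boc in Tbx6+ (-0.56) and Cdon in Sfn+ (-0.49). These thinned values rest on few cells. A UMI was left in 4 untreated and 9 dTAG-13 cells for Gli1, 11 and 2 for Boc, and 2 and 15 for Cdon. Without the untreated cell of 20 Shh UMIs, chosen after seeing the data, Shh was 1.16 over the whole library and 0.11 in Foxa2+ T+ cells. The cause was not tested. Depth limits Hhip and Shh most, at 93 and 107 UMIs in the untreated library.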
